A study of Danio rerio with 4 samples.

Results

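The transcriptomes of control zebrafish embryos at 24 and at 10 hours post fertilization (hpf) were compared across all genes that reached 5 TPM (transcript abundance per length, set to a fixed library total) in either library. This held for 8784 of the 28697 genes in the series, each gene being the sum of the transcripts that carry its symbol. The lowest gene taken in stood at 5 TPM in its higher library and the highest gene left out at 4.99 TPM. The higher library was between 5 and 6 TPM for 662 of the genes compared and between 4 and 5 TPM for 740 of the genes left out.

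Both control pools came from embryos injected at the one-cell stage with 2 nl holding 8 ng of a control morpholino, an antisense oligomer used as the control, and 300 pg of GFP mRNA as a tracer of injection. One pool of 50 whole embryos was taken at 24 hpf and another at 10 hpf, after growth at 28.5 °C in Holtfreter's solution. RNA was extracted with TRIzol, selected for poly(A) tails and made into libraries with the NEBNext Ultra kit, 1 library per pool. All embryos of the series were injected, so the stages compared are those of injected embryos, and other pools of the same stages received 4 ng each of rbm14a and rbm14b morpholinos. A pool averages its embryos, and nothing gives the spread between pools, so every difference below is one between 2 libraries, without a p-value.

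At 10 hpf the zebrafish embryo ends gastrulation: the germ layers have been laid out by Nodal, BMP, Wnt and organizer signals, and the tailbud begins to extend the axis. By 24 hpf segmentation of the trunk is complete, the brain is regionalized, the heart begins to beat, primitive red cells and muscle fibres have formed, and a hatching gland lies on the yolk. Many transcripts of the gastrula embryo were supplied by the mother or belong to the first wave of zygotic transcription, and they are known to be cleared as tissues differentiate.

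TPM divides the reads of a transcript by its length and sets each library to the same total, so a gene can gain share because others lose it. The libraries were therefore rescaled by a trimmed mean of the ratios of genes at or above 1 TPM at both stages. This subtracted a shift of −0.52 on the log2 scale, or 1.44 as a fold, split evenly over both libraries. All log2 ratios are 24 over 10 hpf, relative to that shift, after adding 0.5 TPM to each rescaled value. The ratios of scarce transcripts therefore come out smaller than they are. TPM values themselves are printed as deposited. A gene was counted as higher or lower when its ratio reached 2-fold, and as between otherwise.

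By this rule 4629 of the 8784 genes, or 52.7%, differed at least 2-fold between the stages. There were 2600 genes higher at 24 hpf, or 29.6%, and 2029 genes lower, or 23.1%. The median log2 ratio over all genes compared was −0.06. Of the genes past the rule 56.2% were higher, but without the rescaling the share was 38.2%, with 2029 genes higher and 3282 lower and a median over all genes of −0.56. The larger the difference, the more it lay on the higher side: 1435 genes were at least 4-fold higher and 585 at least 4-fold lower, and 151 were at least 64-fold higher and 13 at least 64-fold lower. These counts by size leave out genes listed at 0 in a library, of which 165 were listed at 0 at 10 hpf and 42 at 24 hpf. Since a 0 among TPM values may only mean that the estimate failed, folds are withheld for those genes.

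**Figure D1:**
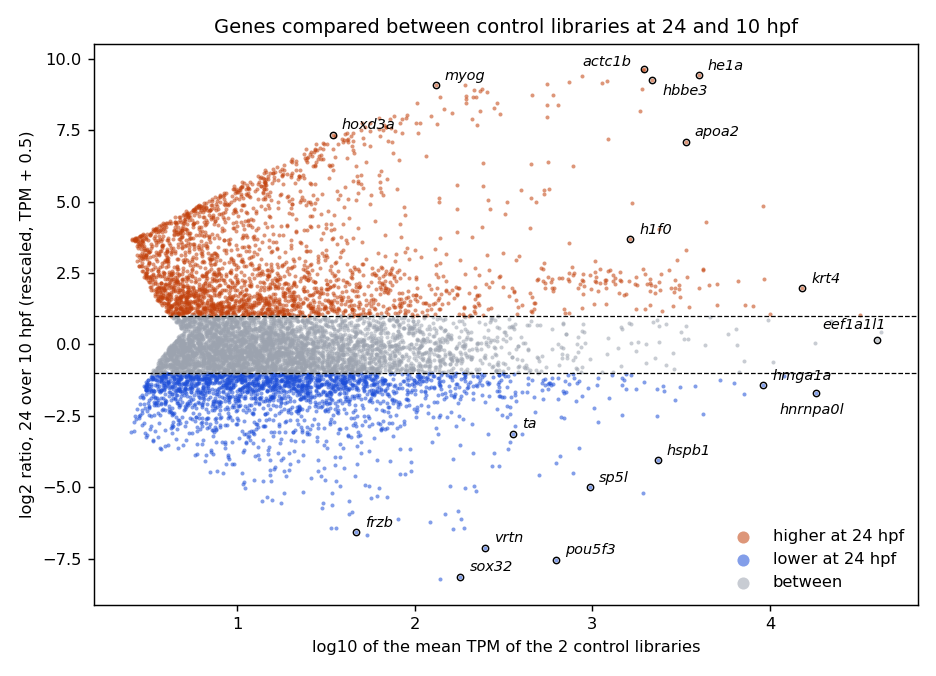
Log2 ratio of 24 over 10 hpf against the log10 of the mean TPM of the 2 control libraries, 1 point per gene compared, without genes listed at 0 in a library; dashed lines mark 2-fold. The cloud extends further above 0 than below it, with the muscle gene actc1b, the hatching enzyme he1a and the globin hbbe3 at the top right and sox32, pou5f3 and vrtn at the bottom.

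At 24 hpf 7000 genes reached 5 TPM and at 10 hpf 7120. Of these, 1664 did so at 24 hpf only, 1784 at 10 hpf only and 5336 in both. Spearman's rho between the libraries over the genes compared was 0.49, given as a description since genes are not replicates. The 100 most abundant genes held 59.0% of all TPM at 24 hpf and 54.2% at 10 hpf, and 54 genes were in both sets. Mitochondrially encoded mt-co1, a subunit of cytochrome oxidase, had 41062 TPM at 24 hpf and 43262 TPM at 10 hpf. The elongation factor gene eef1a1l1 had 35061 TPM at 24 hpf and 44869 TPM at 10 hpf. Other abundant genes differed more. The keratin krt4 had 22221 TPM at 24 hpf and 8180 TPM at 10 hpf, and the RNA-binding protein gene hnrnpa0l had 6407 TPM at 24 hpf and 29678 TPM at 10 hpf.

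Members of 53 gene lists were then set against the background shares above. These were 29.6% higher and 23.1% lower, and every list count below is to be read beside them. The lists matched 2007 genes, of which 1471 were compared. A gene silent at both stages is not among them, and a gene that reached 5 TPM in 1 library through its own tissue had to differ, so counts over compared members describe those members and nothing more. In whole embryos fewer cells of a type and less RNA per cell cannot be told apart. A median over a list takes a gene listed at 0 at its ratio on the scale with 0.5 TPM added, and the median without such genes is given beside it where it differs. The median was 1 or more for 27 lists, −1 or less for 7 and between for 19. In several lists many matched members did not reach the floor, such as 19 of 35 endothelial and 18 of 31 pronephros genes. The same held for 12 of 24 pigment, 26 of 51 glycolysis and hypoxia, 20 of 30 cholesterol and 14 of 21 germ plasm genes.

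**Figure D2:**
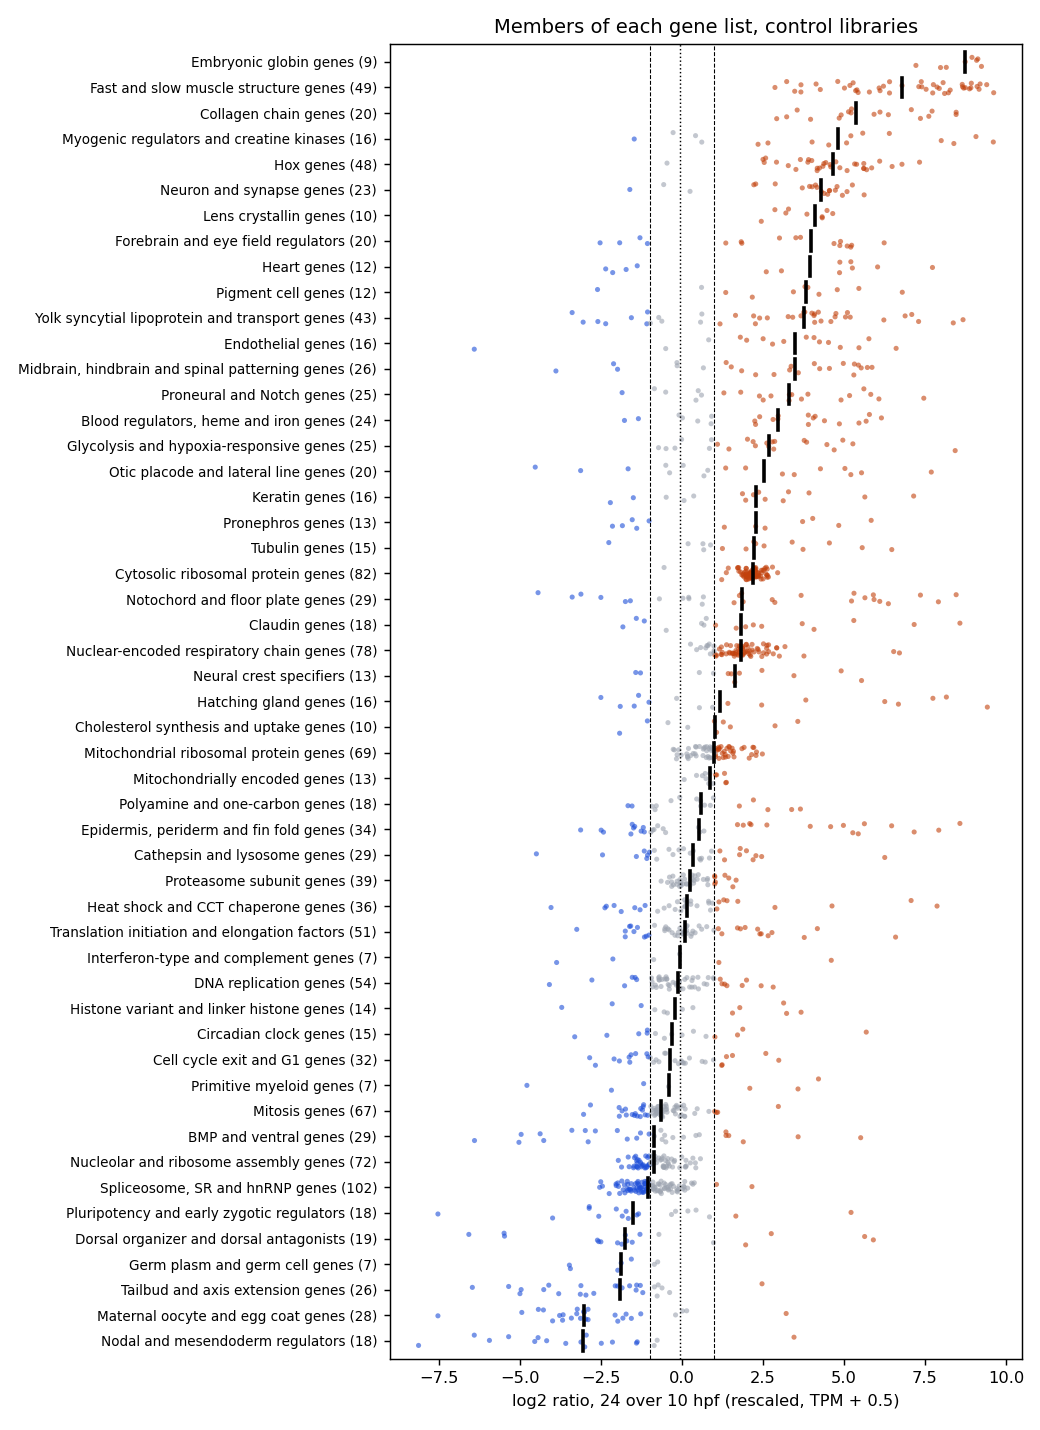
Log2 ratio of 24 over 10 hpf for the members of the gene lists named on the axis, 1 point per gene, with the number of members compared in brackets, a bar at the list's median, which also counts genes listed at 0 in a library that are not drawn, a dotted line at the median over all genes and dashed lines at 2-fold. Globin, muscle and collagen genes lie furthest to the right, and maternal, Nodal, tailbud and germ plasm genes furthest to the left.

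The regulators that pattern the gastrula were mostly lower at 24 hpf. Of 18 compared genes of the Nodal pathway and the mesendoderm it induces, 15 were lower and 1 higher, with a median log2 ratio of −3.06. The endoderm determinant sox32 had 0.48 TPM at 24 hpf and 360 TPM at 10 hpf. At −8.13 its log2 ratio was the lowest of any gene with a standard symbol and a value in both libraries. Its target sox17, a marker of endoderm, had 0.14 TPM at 24 hpf and 67.5 TPM at 10 hpf (log2 ratio −6.41). Both endoderm genes were thus below 1 TPM at 24 hpf. The Nodal cofactor foxh1 had 2.9 TPM at 24 hpf and 292 TPM at 10 hpf (log2 ratio −5.94). The Nodal ligand ndr2 had 0.31 TPM at 24 hpf and 18.3 TPM at 10 hpf, while the ligand ndr1, below the floor, had 0.35 TPM at 24 hpf and 2.99 TPM at 10 hpf. The exception was eomesa, a T-box gene of early mesendoderm that is later active in the forebrain, with 20.6 TPM at 24 hpf and 2.16 TPM at 10 hpf (log2 ratio 3.46).

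Organizer genes split by gene. Of 19 compared, 13 were lower and 4 higher, with a median of −1.75, or −1.73 without gsc, which was listed at 0. The BMP antagonist chd, chordin, had 0.90 TPM at 24 hpf and 84.5 TPM at 10 hpf (log2 ratio −5.49), and the organizer ligand gene admp had 0.02 TPM at 24 hpf and 27.4 TPM at 10 hpf (log2 ratio −5.48). The organizer homeobox gene gsc was listed at 0 at 24 hpf and had 45.9 TPM at 10 hpf, and the Wnt antagonist frzb had 0.26 TPM at 24 hpf and 92.3 TPM at 10 hpf. Other antagonists of BMP and activin signals were higher. Noggin gene nog2 had 44.1 TPM at 24 hpf and 0.47 TPM at 10 hpf (log2 ratio 5.90), whereas its paralog nog1 had 18.9 TPM at 24 hpf and 45 TPM at 10 hpf (log2 ratio −0.71, between). Both follistatin paralogs were higher, fsta at 55.7 TPM at 24 hpf and 11.4 TPM at 10 hpf, and fstb at 21.7 TPM at 24 hpf and 0.04 TPM at 10 hpf.

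On the ventral side 14 of 29 compared BMP-linked genes were lower and 6 higher, beside 23.1% and 29.6% of all genes compared. Their median was −0.85. The BMP antagonist of ventral cells szl, sizzled, had 0.18 TPM at 24 hpf and 72.0 TPM at 10 hpf (log2 ratio −6.40). The ventral homeobox repressors ved, vox and vent were all lower, with ved at 7.53 TPM at 24 hpf and 373 TPM at 10 hpf. The ligand gene bmp7a had 0.60 TPM at 24 hpf and 29.8 TPM at 10 hpf, and bmp2b had 12.7 TPM at 24 hpf and 119 TPM at 10 hpf. The general target of BMP signalling id1 did not differ by the rule, at 3060 TPM at 24 hpf and 3268 TPM at 10 hpf (log2 ratio 0.43). The homeobox gene dlx5a, later active in forebrain, fin fold and skeleton, went the other way at 78.4 TPM at 24 hpf and 1.88 TPM at 10 hpf (log2 ratio 5.51).

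Of 18 compared early zygotic regulators, 11 were lower, 2 higher and 5 between, with a median of −1.53. The POU factor pou5f3, which with nanog opens zygotic genes, had 4.25 TPM at 24 hpf and 1240 TPM at 10 hpf (log2 ratio −7.53). Its partner nanog had 0.74 TPM at 24 hpf and 25.9 TPM at 10 hpf (log2 ratio −3.99). The SoxB1 genes of the list, which keep neural progenitors undifferentiated, stayed within 2-fold: sox2 had 277 TPM at 24 hpf and 351 TPM at 10 hpf, sox3 had 871 TPM at 24 hpf and 927 TPM at 10 hpf, sox19a had 859 TPM at 24 hpf and 1546 TPM at 10 hpf, and sox19b had 152 TPM at 24 hpf and 250 TPM at 10 hpf. The Myc gene myca had 109 TPM at 24 hpf and 3.65 TPM at 10 hpf (log2 ratio 5.22).

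Tailbud and axis extension genes were lower in 19 of 26 cases, with a median of −1.92, or −1.99 without the gene listed at 0. Brachyury, ta, which marks notochord and tailbud, had 52.8 TPM at 24 hpf and 664 TPM at 10 hpf (log2 ratio −3.12). The Wnt ligand gene wnt8a had 2.13 TPM at 24 hpf and 324 TPM at 10 hpf (log2 ratio −6.47), and the Wnt target sp5l had 40.8 TPM at 24 hpf and 1894 TPM at 10 hpf (log2 ratio −5.0). Genes of the segmentation clock, whose cycles time the somites, were lower too, with her7 at 6.93 TPM at 24 hpf and 182 TPM at 10 hpf and her1 at 5.86 TPM at 24 hpf and 69.8 TPM at 10 hpf. The presomitic mesoderm gene msgn1 kept 58.1 TPM at 24 hpf, against 739 TPM at 10 hpf. The retinoic acid-degrading enzyme cyp26a1 had 26.0 TPM at 24 hpf and 529 TPM at 10 hpf, and the enzyme that makes retinoic acid, aldh1a2, differed less, at 13.4 TPM at 24 hpf and 29.9 TPM at 10 hpf (log2 ratio −0.62).

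Hox genes, which assign position along the body axis, were higher almost without exception. All 48 Hox genes of the list were compared, 47 were higher at 24 hpf and 1, hoxb1b, was between. At 24 hpf the 48 genes ranged from 5.33 to 115 TPM with a median of 24.6 TPM, and at 10 hpf they ranged from 0 to 227 TPM with a median of 0.27 TPM. Only 5 Hox genes reached 5 TPM at 10 hpf and 15 were listed at 0, and the median log2 ratio was 4.67, or 4.44 without those listed at 0. The gene hoxb1b, an early hindbrain Hox gene, had 115 TPM at 24 hpf and 227 TPM at 10 hpf (log2 ratio −0.46), and it held 8.15% of the summed Hox TPM at 24 hpf and 82.5% at 10 hpf. Its paralog hoxb1a, which later marks a single hindbrain segment, had 35.6 TPM at 24 hpf and 6.26 TPM at 10 hpf (log2 ratio 2.92).

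**Figure D3:**
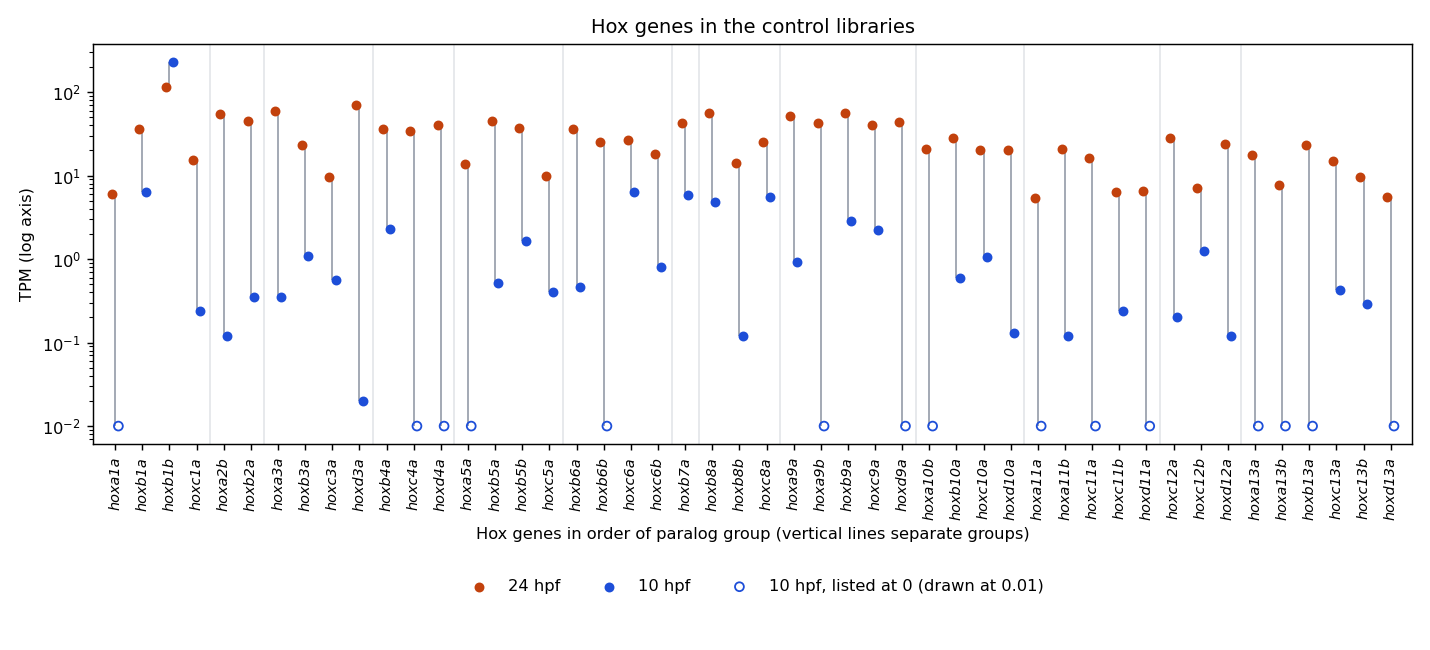
TPM on a log axis of each Hox gene in the control libraries at 24 hpf (left point of each pair) and at 10 hpf (right point), in order of paralog group; open circles are genes listed at 0 at 10 hpf. The gene hoxb1b is the single one with a higher TPM at 10 hpf; every other point of 24 hpf lies above its partner.

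Sums over paralog groups showed no steady order along the axis. The groups held from 1 gene (group 7) to 6 (group 13), with 5 in group 9 and 2 in group 2. The sums were not divided by the number of genes, so they do not compare levels per gene. Summed TPM of paralog group 3 was 161 at 24 hpf and 2.01 at 10 hpf, that of group 9, the highest at 24 hpf, was 234 at 24 hpf and 5.98 at 10 hpf, and that of group 13, the most posterior, was 78.2 at 24 hpf and 0.71 at 10 hpf. At 10 hpf group 8 summed to 10.6 TPM and group 6 to 7.62 TPM, above group 2 at 0.47 TPM. The largest log2 ratio was that of hoxd3a, at 68.9 TPM at 24 hpf and 0.02 TPM at 10 hpf (7.33). The trunk gene hoxc6a had 27.0 TPM at 24 hpf and 6.36 TPM at 10 hpf, the smallest ratio among the higher Hox genes at 2.5.

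Genes of the nervous system were mostly higher at 24 hpf by count. Summed TPM as deposited, members under the floor included, was 583 at 24 hpf and 733 at 10 hpf for the forebrain and eye list. For midbrain, hindbrain and spinal cord it was 1042 at 24 hpf and 1782 at 10 hpf. Proneural and Notch genes summed to 1853 TPM at 24 hpf and 1182 TPM at 10 hpf, and neuron and synapse genes to 2547 and 832 TPM. Of 20 compared regulators of forebrain and eye, 16 were higher and 4 lower, and the telencephalic gene foxg1a had 66.2 TPM at 24 hpf and 0.67 TPM at 10 hpf (log2 ratio 6.24). The list's median of 3.98, or 3.51 without genes listed at 0, was 1.83 at a floor of 20 TPM. Genes of the early anterior neural plate went both ways. The gene otx2, which marks future forebrain and midbrain, had 59.8 TPM at 24 hpf and 212 TPM at 10 hpf (log2 ratio −1.30), and the eye field gene rx3 had 8.73 TPM at 24 hpf and 26.9 TPM at 10 hpf (log2 ratio −1.07). The forebrain and eye field gene six3b was higher, at 98.8 TPM at 24 hpf and 39.6 TPM at 10 hpf (log2 ratio 1.83). Of 26 compared genes of midbrain, hindbrain and spinal cord, 20 were higher, among them the hindbrain segment gene egr2b at 26.9 TPM at 24 hpf and 0.25 TPM at 10 hpf and the ventral neural tube gene nkx2.2a at 31.9 TPM at 24 hpf and 0.20 TPM at 10 hpf. The midline signal shha had 29.6 TPM at 24 hpf and 11.4 TPM at 10 hpf (log2 ratio 1.84).

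Proneural genes, which commit cells to neurons, and Notch-linked genes were together higher in 19 of 25 compared, with 1 lower. Neurogenin1, neurog1, which starts neurogenesis at the end of gastrulation, had 116 TPM at 24 hpf and 28.9 TPM at 10 hpf (log2 ratio 2.51). The factor neurod4, which acts after it, had 111 TPM at 24 hpf and 0.31 TPM at 10 hpf (log2 ratio 7.46). The hindbrain proneural gene atoh1a had 48.7 TPM at 24 hpf and was listed at 0 at 10 hpf. The Notch-linked repressors her6 and her9 were within 2-fold, with her6 at 200.3 TPM at 24 hpf and 213 TPM at 10 hpf. Of 23 compared genes of differentiated neurons and synapses 20 were higher, with a median of 4.3, or 4.23 without the gene listed at 0. The RNA-binding marker of new neurons elavl3 had 23.9 TPM at 24 hpf and 0.67 TPM at 10 hpf (log2 ratio 4.78), and the motor neuron gene isl1 had 25.9 TPM at 24 hpf and 0.17 TPM at 10 hpf. Of the 55 matched genes of that list 32 did not reach the floor, such as the vesicle fusion gene snap25a at 3.32 TPM at 24 hpf and 0.01 TPM at 10 hpf.

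Neural crest specifiers differed from one another. The crest factor foxd3 was abundant at both stages, at 222 TPM at 24 hpf and 162 TPM at 10 hpf (log2 ratio 0.97, between), and tfap2a, also an epidermal gene, was lower at 64.1 TPM at 24 hpf and 225 TPM at 10 hpf. The factor sox10, of migrating crest, had 26.8 TPM at 24 hpf and 0.24 TPM at 10 hpf (log2 ratio 5.54). Of 13 compared, 9 were higher and 2 lower. Of 12 compared pigment genes, 10 were higher: the pteridine enzyme gch2 had 88.5 TPM at 24 hpf and 0.55 TPM at 10 hpf, and the melanin enzyme tyrp1b had 12.1 TPM at 24 hpf and 0.05 TPM at 10 hpf. The purine enzyme pnp4a, a marker of iridophores, was lower at 5.24 TPM at 24 hpf and 48.9 TPM at 10 hpf (log2 ratio −2.61).

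Crystallins, the proteins of the lens, were near the floor. Only 10 of 45 matched lens genes reached the floor, all 10 were higher at 24 hpf, and none exceeded 14.5 TPM at 24 hpf or 1.39 TPM at 10 hpf. The crystallin gene crybb1 had 13.6 TPM at 24 hpf and 0.20 TPM at 10 hpf, and cryaa, below the floor, had 0.93 TPM at 24 hpf and was listed at 0 at 10 hpf. Where crystallin paralogs are near-identical, the authors' values may split reads between them. Otic and lateral line genes were higher in 12 of 20 compared and lower in 3, and the otolith gene stm, starmaker, was among the lower ones at 4.42 TPM at 24 hpf and 160 TPM at 10 hpf (log2 ratio −4.53).

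Skeletal muscle genes were among those with the highest ratios. The embryonic globin list had a higher median, at 8.74, or 8.84 without the gene listed at 0. All 49 compared genes of fast and slow fibres were higher at 24 hpf, with log2 ratios of 2.87 to 9.62 for those with a value in both libraries. Only 5 of the 49 reached 5 TPM at 10 hpf, so most entered the comparison through the 24 hpf library alone. Of 81 matched genes 32 did not reach the floor. The median of the 49 was 6.79, or 7.38 without the 4 genes listed at 0 at 10 hpf. Together with the members under the floor the 49 summed to 1.98% of all TPM at 24 hpf and 0.0103% at 10 hpf. The sarcomeric actin gene actc1b had 3907 TPM at 24 hpf and 6.55 TPM at 10 hpf (log2 ratio 9.62). This was the highest ratio of all genes with a standard symbol and a value in both libraries. The calcium pump gene atp2a1 had 1745 TPM at 24 hpf and 3.11 TPM at 10 hpf (log2 ratio 9.40), and the fast myosin light chain mylpfa had 2401 TPM at 24 hpf and 5.28 TPM at 10 hpf (log2 ratio 9.20). Slow fibres were represented by the myosin heavy chain smyhc1, at 323 TPM at 24 hpf and 1.09 TPM at 10 hpf (log2 ratio 8.10). Of the 25 genes with the highest ratios 19 were muscle, creatine kinase or globin genes of the lists.

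The regulators of muscle differed from one another in their ratios between the stages. The determination gene myf5 was within 2-fold at 23.9 TPM at 24 hpf and 25.6 TPM at 10 hpf (log2 ratio 0.42). Myod1, active in adaxial cells at the end of gastrulation, had 166 TPM at 24 hpf and 9.75 TPM at 10 hpf (log2 ratio 4.53). The differentiation factor myog had 261 TPM at 24 hpf and 0.10 TPM at 10 hpf (log2 ratio 9.07). The fusion gene tmem8c, myomaker, had 55.3 TPM at 24 hpf and 0.35 TPM at 10 hpf (log2 ratio 6.40). Creatine kinases divided by tissue: the muscle forms ckma and ckmb were higher, with ckmb at 3849 TPM at 24 hpf and 6.50 TPM at 10 hpf, and the brain form ckbb was between at 84.7 TPM at 24 hpf and 147 TPM at 10 hpf.

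Heart genes were higher in 8 of 12 compared and lower in 4, and 13 of 25 matched did not reach the floor. The cardiac myosin light chain cmlc1 had 203 TPM at 24 hpf and 0.78 TPM at 10 hpf (log2 ratio 7.73), myl7 had 28.8 TPM at 24 hpf and 0.04 TPM at 10 hpf, and the ventricular myosin vmhc had 16.8 TPM at 24 hpf and 0.07 TPM at 10 hpf. The lower ones included gata5, which also acts in early endoderm, at 22.0 TPM at 24 hpf and 83.5 TPM at 10 hpf. The heart regulator nkx2.5 did not reach the floor, at 2.69 TPM at 24 hpf and 0.11 TPM at 10 hpf.

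All 9 embryonic globin genes were higher at 24 hpf, with log2 ratios of 7.22 to 9.24 for those with a value in both libraries, and summed to 1.25% of TPM at 24 hpf and 0.00312% at 10 hpf. The beta-type globin hbbe3 had 4316 TPM at 24 hpf and 9.66 TPM at 10 hpf (log2 ratio 9.24), and the alpha-type hbae3 had 3809 TPM at 24 hpf and 10.5 TPM at 10 hpf (log2 ratio 8.95). Reads may be split among those globins that are near-identical, so single values are less certain than their sum. Of 24 compared regulators of blood, heme and iron genes 17 were higher, 2 lower and 5 between, and 20 of 44 matched did not reach the floor. The heme enzyme alas2 had 43.2 TPM at 24 hpf and 0.54 TPM at 10 hpf, and the red cell factor gata1a had 12.5 TPM at 24 hpf and 0.04 TPM at 10 hpf. The list member cahz was lower, at 25.1 TPM at 24 hpf and 92.7 TPM at 10 hpf (log2 ratio −1.35). The iron storage gene fth1a was between, at 527 TPM at 24 hpf and 751 TPM at 10 hpf (log2 ratio 0.01 after the rescaling).

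At 10 hpf the 25 genes with the highest ratios stood at 0.0383% to 0.375% of their own 24 hpf TPM, with a median of 0.207%. In the rbm14 morpholino libraries the same genes stood at 0% to 0.454%, with a median of 0.192%. Whether reads carried over between libraries contribute to these low 10 hpf levels was not tested.

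Endothelial genes were higher in 13 of 16 compared, with a median of 3.49. The vessel regulator etv2 had 31.8 TPM at 24 hpf and 0.25 TPM at 10 hpf (log2 ratio 5.77). The vessel markers kdrl and cdh5 did not reach the floor, with cdh5 at 4.61 TPM at 24 hpf and 0.01 TPM at 10 hpf. The 1 endothelial list gene that was lower, sox17, is the endoderm marker described above. Myeloid genes were few: 7 of 31 matched reached the floor, 3 higher and 3 lower. The lysozyme gene lyz had 14.1 TPM at 24 hpf and 0.53 TPM at 10 hpf (log2 ratio 4.21), and the leukocyte actin bundler lcp1 had 1.38 TPM at 24 hpf and 70.6 TPM at 10 hpf (log2 ratio −4.79).

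In the pronephros, the embryonic kidney, 8 of 13 compared genes were higher and 5 lower. The transporter atp1a1a.4 had 26.6 TPM at 24 hpf and 0.08 TPM at 10 hpf (log2 ratio 5.84). The early mesoderm gene lhx1a, also of the organizer list, had 3.28 TPM at 24 hpf and 14.8 TPM at 10 hpf (log2 ratio −1.54). Collagen chains were higher in all 20 compared, with log2 ratios of 2.92 to 8.46 for those with a value in both libraries and a median of 5.37, or 5.58 without the 2 listed at 0. Of 46 matched chains 26 did not reach the floor. The notochord collagen col2a1a had 389 TPM at 24 hpf and 0.99 TPM at 10 hpf, and the fin fold and skin collagen col1a1a had 579 TPM at 24 hpf and 1.77 TPM at 10 hpf. Among the notochord and floor plate genes, 17 of 29 were higher and 6 lower, beside 29.6% and 23.1% of all genes compared. The sheath gene col9a1b had 80.5 TPM at 24 hpf and 0.11 TPM at 10 hpf (log2 ratio 7.36), while the notochord regulator noto had 5.50 TPM at 24 hpf and 184 TPM at 10 hpf (log2 ratio −4.44).

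The enzymes of the hatching gland dissolve the egg envelope. Of 16 compared genes of its list 8 were higher and 5 lower, beside 29.6% and 23.1% of all genes compared. The hatching enzymes he1a, he1b and he2 together had 11742 TPM at 24 hpf and 34.3 TPM at 10 hpf. The enzyme he1a had 7916 TPM at 24 hpf and 16 TPM at 10 hpf (log2 ratio 9.42), and the gland protease ctslb had 1533 TPM at 24 hpf and 28.2 TPM at 10 hpf (log2 ratio 6.26). The gland regulator klf17, present at both stages, was lower at 112 TPM at 24 hpf and 410 TPM at 10 hpf (log2 ratio −1.34). The secretory factor xbp1 was within 2-fold at 594 TPM at 24 hpf and 588 TPM at 10 hpf.

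**Figure D4:**
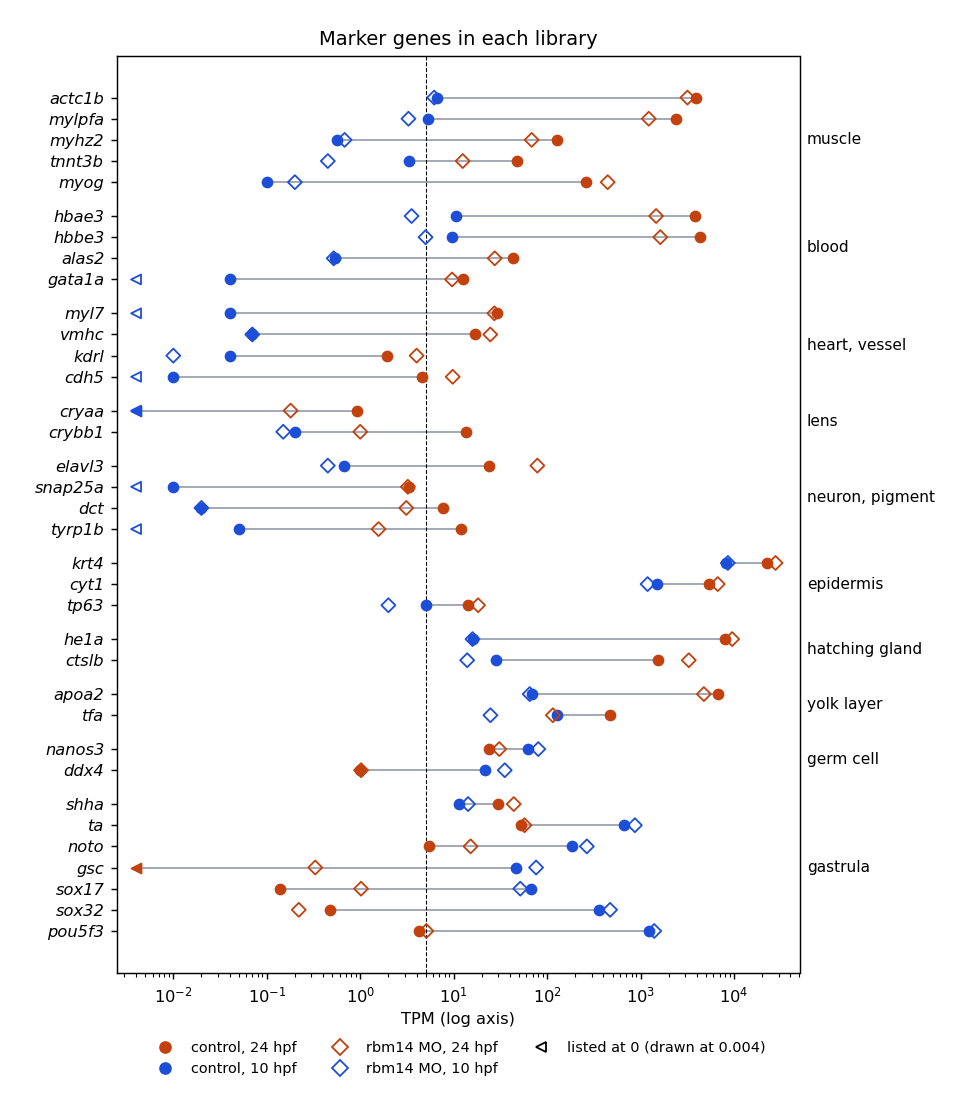
TPM on a log axis of marker genes in the control libraries at 24 and 10 hpf (filled circles) and in the rbm14 morpholino libraries at 24 and 10 hpf (open diamonds), by tissue; triangles are values listed at 0, and the dashed line is the floor of 5 TPM. The markers of muscle, blood, hatching gland and yolk layer stand above their 10 hpf levels in the 24 hpf libraries, and the gastrula genes other than shha stand below theirs.

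In the skin, keratins differed by member. Of 16 compared, 11 were higher and 2 lower. The periderm keratin krt4 had 22221 TPM at 24 hpf and 8180 TPM at 10 hpf (log2 ratio 1.97), and krtt1c19e, of basal skin cells, had 82.4 TPM at 24 hpf and 0.24 TPM at 10 hpf (log2 ratio 7.15). The simple epithelial keratin krt8 was lower at 1219 TPM at 24 hpf and 4964 TPM at 10 hpf (log2 ratio −1.50), and krt5 was between at 5494 TPM at 24 hpf and 6148 TPM at 10 hpf. Of 18 compared claudins, the tight junction proteins, 11 were higher, 3 lower and 4 between. Their median was 1.82, or 1.67 without the gene listed at 0, and 10 of 28 matched claudins did not reach the floor. Claudin cldni had 387 TPM at 24 hpf and 0.86 TPM at 10 hpf (log2 ratio 8.58), whereas cldne had 506 TPM at 24 hpf and 1632 TPM at 10 hpf (log2 ratio −1.16) and cldnb was between at 514 TPM at 24 hpf and 462 TPM at 10 hpf. Over the wider epidermal list 15 of 34 were higher and 10 lower, beside 29.6% and 23.1% of all genes compared. Its median was 0.53. The ionocyte factor foxi3b had 53.6 TPM at 24 hpf and 0.97 TPM at 10 hpf.

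The yolk syncytial layer feeds yolk lipid to the embryo. Of 43 compared genes of its list 31 were higher and 7 lower. With the members under the floor the list summed to 4.32% of TPM at 24 hpf and 2.72% at 10 hpf, in whole embryos. The lipoprotein apoa2 had 6640 TPM at 24 hpf and 69.5 TPM at 10 hpf (log2 ratio 7.09), and apoa1a had 8093 TPM at 24 hpf and 594 TPM at 10 hpf (log2 ratio 4.29). The apolipoprotein apoeb was already high, at 6510 TPM at 24 hpf and 14405 TPM at 10 hpf (log2 ratio −0.62), and its paralog apoea had 52.8 TPM at 24 hpf and 0.42 TPM at 10 hpf (log2 ratio 6.23). The retinol carrier rbp4 had 425 TPM at 24 hpf and 0.90 TPM at 10 hpf (log2 ratio 8.67). The cathepsins ctsla and ctsll, lysosomal proteases, were lower: ctsla had 819 TPM at 24 hpf and 2459 TPM at 10 hpf (log2 ratio −1.06), and ctsll had 46.2 TPM at 24 hpf and 1510 TPM at 10 hpf (log2 ratio −4.49).

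The machinery of protein synthesis moved in opposite ways in its parts. Of 82 compared cytosolic ribosomal proteins, 81 were higher and 1 between, with a median log2 ratio of 2.2. With the member under the floor they held 18% of TPM at 24 hpf and 5.83% at 10 hpf. The gene rps9 had 10079 TPM at 24 hpf and 3147 TPM at 10 hpf (log2 ratio 2.2), and the between gene was rpl7l1, a relative of rpl7, at 76.6 TPM at 24 hpf and 162 TPM at 10 hpf. Without the rescaling the median was still 1.68. Ribosome assembly genes ran the other way: 0 of 72 nucleolar genes were higher and 30 were lower, with a median of −0.87. Nucleolin, ncl, had 244 TPM at 24 hpf and 1373 TPM at 10 hpf (log2 ratio −1.97), and fibrillarin, fbl, had 183 TPM at 24 hpf and 681 TPM at 10 hpf (log2 ratio −1.37). Translation factors took no common direction, with 13 of 51 higher and 10 lower, beside 29.6% and 23.1% of all genes compared. Their median of 0.09 was −0.43 without the rescaling.

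Splicing genes were lower in 52 of 102 compared and higher in 2, with a median of −1.05. With the members under the floor they summed to 2.42% of TPM at 24 hpf and 8.91% at 10 hpf. The most abundant of them, hnrnpa0l, had the log2 ratio −1.69, and hnrnpaba was at 2686 TPM at 24 hpf and 9836 TPM at 10 hpf (log2 ratio −1.35). The RNA unwinding subunit snrnp200 had 24.8 TPM at 24 hpf and 172 TPM at 10 hpf (log2 ratio −2.25). The paralog rbm14b, a target in the other arm of the series, was within 2-fold in the control libraries at 21.0 TPM at 24 hpf and 28.8 TPM at 10 hpf (log2 ratio 0.07).

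Respiratory chain genes encoded in the nucleus were higher in 67 of 78 and lower in 0, with a median of 1.82. The subunits ndufa4 and cox6b1 had the highest ratios, ndufa4 at 90.6 TPM at 24 hpf and 0.65 TPM at 10 hpf (log2 ratio 6.71), and cox6b1 at 82.6 TPM at 24 hpf and 0.69 TPM at 10 hpf (log2 ratio 6.53). The 13 genes of mitochondrial DNA had log2 ratios of 0.07 to 1.37 with a median of 0.86, and 5 were higher. Without the rescaling the median was 0.33 and none of those 5 was past 2-fold. Mitochondrial ribosomal proteins were higher in 33 of 69 and lower in 0, with a median of 0.98 that was 0.48 without the rescaling. Glycolysis and hypoxia genes were higher in 19 of 25, with gapdh at 885 TPM at 24 hpf and 175 TPM at 10 hpf (log2 ratio 2.86) and the muscle aldolase aldoab at 206 TPM at 24 hpf and 0.26 TPM at 10 hpf (log2 ratio 8.43). Proteasome subunits were within 2-fold in 31 of 39, with a median of 0.24 that was −0.26 without the rescaling. Among the chaperones 10 of 36 were higher and 8 lower, beside 29.6% and 23.1% of all genes compared. Their median of 0.15 was −0.37 without the rescaling and 0.13 without the gene listed at 0. The constitutive hspa8 had 5295 TPM at 24 hpf and 7803 TPM at 10 hpf (log2 ratio −0.04), the small heat shock gene hspb1 had 189 TPM at 24 hpf and 4475 TPM at 10 hpf (log2 ratio −4.04), and the muscle chaperone hsp90aa1.1 had 169 TPM at 24 hpf and 0.44 TPM at 10 hpf (log2 ratio 7.87).

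Ribosomal, respiratory and splicing genes had other medians in the rbm14 morpholino pair, and part of that depended on the rescaling. In the rbm14 morpholino libraries, 24 over 10 hpf, 4 of 82 ribosomal protein genes were higher and their median was 0.49, and in the control libraries 81 of 82 were higher with a median of 2.2. Respiratory chain genes there were higher in 37 of 78 with a median of 0.96, and in the controls in 67 of 78 with a median of 1.82. Splicing genes were lower in 81 of 102 with a median of −1.70, and in the controls in 52 of 102 with a median of −1.05. The shift subtracted was 0.37 in the rbm14 morpholino pair and −0.52 in the control pair, and 57.4% of 9551 genes were past the rule there, 35.4% higher and 22.1% lower. Without the rescaling the ribosomal median was 0.86 in the rbm14 morpholino pair and 1.68 in the control pair. The respiratory median was then 1.32 in the rbm14 morpholino pair and 1.3 in the control pair, and the splicing median was −1.34 in the rbm14 morpholino pair and −1.58 in the control pair, so the order of the pairs held for ribosomal genes only.

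**Figure D5:**
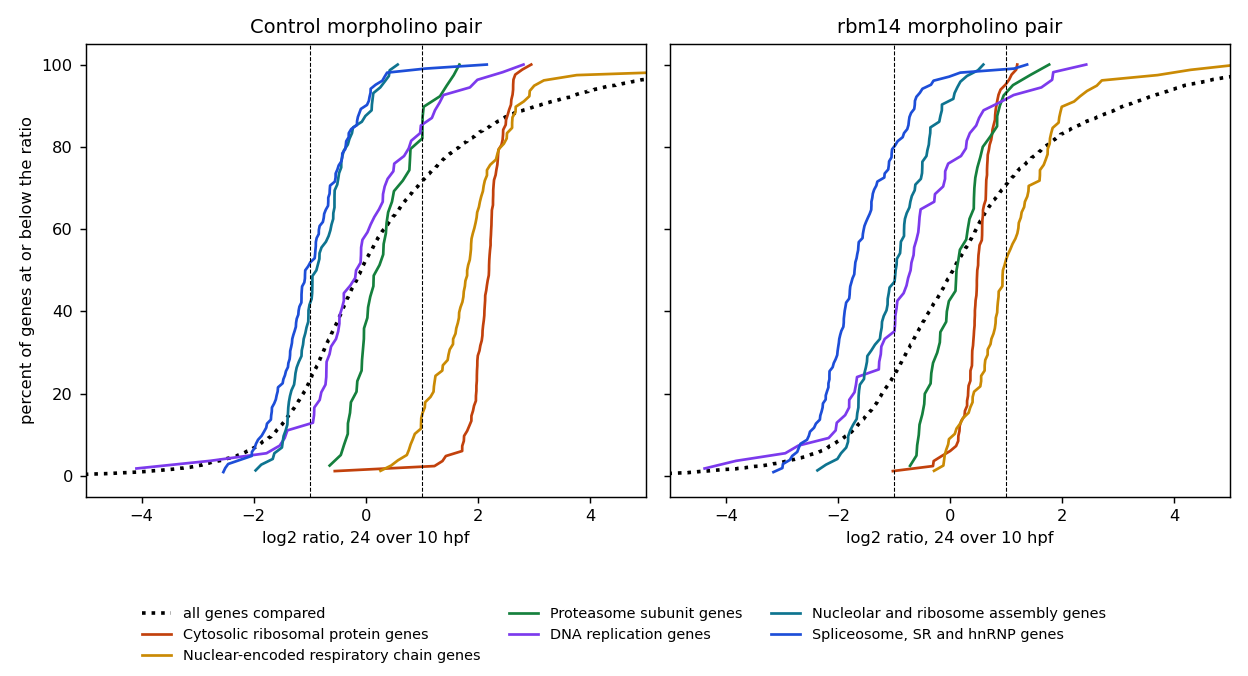
Percent of genes at or below a log2 ratio of 24 over 10 hpf, for 6 gene lists and for all genes compared (dotted), in the control pair (left) and in the rbm14 morpholino pair (right); dashed lines mark 2-fold. Ribosomal and respiratory curves lie well to the right of the dotted curve in the control pair, and in the rbm14 morpholino pair 77 of 82 ribosomal genes lie within 2-fold.

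Of 54 replication genes 40 were within 2-fold, 8 higher and 6 lower, with a median of −0.13 that was −0.64 without the rescaling. The clamp pcna had 482 TPM at 24 hpf and 960 TPM at 10 hpf (log2 ratio −0.47), and the licensing factor cdc6 had 54 TPM at 24 hpf and 267 TPM at 10 hpf (log2 ratio −1.77). Of 67 mitosis genes 18 were lower, 4 higher and 45 between, with a median of −0.64 that was −1.15 without the rescaling. The replication and mitosis counts are to be read beside 29.6% higher and 23.1% lower of all genes compared. The mitotic cyclin ccnb1 was between at 238 TPM at 24 hpf and 587 TPM at 10 hpf (log2 ratio −0.78, but −1.30 without the rescaling), and its relative ccnb2 was lower at 22.5 TPM at 24 hpf and 125 TPM at 10 hpf (log2 ratio −1.93). The G1 cyclins ccne1 and ccne2 were lower, with ccne1 at 7.92 TPM at 24 hpf and 85.8 TPM at 10 hpf, and ccnd1 was between at 311 TPM at 24 hpf and 778 TPM at 10 hpf (log2 ratio −0.80, but −1.32 without the rescaling). The linker histone h1f0, which accumulates in mammalian cells that leave the cycle, had 2935 TPM at 24 hpf and 330 TPM at 10 hpf (log2 ratio 3.67), and the histone variant h2afy had 5.16 TPM at 24 hpf and 104 TPM at 10 hpf (log2 ratio −3.71). The chromatin protein gene hmga1a was lower at 3762 TPM at 24 hpf and 14611 TPM at 10 hpf (log2 ratio −1.43).

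Genes of the oocyte were lower in 24 of 28 compared and higher in 1, with a median of −3.02, or −3.01 without the gene listed at 0. All 10 compared genes of the egg coat, the zp family, were lower, from 7.58 to 179 TPM at 10 hpf and at most 9.42 TPM at 24 hpf, with zp3b at 1.40 TPM at 24 hpf and 55.8 TPM at 10 hpf (log2 ratio −4.43). The nuclear chaperone npm2b had 0.75 TPM at 24 hpf and 31.9 TPM at 10 hpf (log2 ratio −4.28). Germ plasm genes were lower in 5 of 7: the germ cell helicase ddx4, vasa, had 0.99 TPM at 24 hpf and 21.4 TPM at 10 hpf (log2 ratio −3.44), and nanos3 was between at 24.0 TPM at 24 hpf and 62.9 TPM at 10 hpf (log2 ratio −0.85). The deposited values of nanos3 were more than 2-fold apart, so its call rested on the rescaling. Of 15 compared clock genes 4 were higher and 5 lower, beside 29.6% and 23.1% of all genes compared. The gene clocka had 0.24 TPM at 24 hpf and 8.77 TPM at 10 hpf (log2 ratio −3.31).

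Of the interferon-type and complement list 7 genes were compared, 3 higher, 2 lower and 2 between, with a median of −0.07, or −0.47 without the gene listed at 0. The complement gene c3a.1 had 18.4 TPM at 24 hpf and 0.51 TPM at 10 hpf (log2 ratio 4.61).

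Among abundant genes listed at 0 in a library, nnr had 646.8 TPM at 10 hpf and was listed at 0 at 24 hpf, and the matrix gene egfl6 had 73.6 TPM at 24 hpf and was listed at 0 at 10 hpf. An absent transcript and a failed estimate cannot be told apart in these values.

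Tubulins were higher in 10 of 15 and lower in 1, with the neuronal tuba1c at 605 TPM at 24 hpf and 36.6 TPM at 10 hpf (log2 ratio 4.55) and tuba8l4 between at 3040 TPM at 24 hpf and 3837 TPM at 10 hpf. Over all genes compared 29.6% were higher and 23.1% lower, and the counts that follow are to be read beside those shares. Cathepsin and lysosome genes were higher in 9 of 29 and lower in 7, and their median of 0.35 was −0.16 without the rescaling. Histone genes of the list were higher in 5 of 14 and lower in 4, with a median of −0.22 that was 0.01 without the gene listed at 0. Cholesterol genes were higher in 6 of 10 and lower in 2, and the isomerase idi1 had 27.5 TPM at 24 hpf and 152 TPM at 10 hpf (log2 ratio −1.93). Polyamine and one-carbon genes were higher in 5 of 18 and lower in 2, and the polyamine enzyme odc1 had 132 TPM at 24 hpf and 602 TPM at 10 hpf (log2 ratio −1.67). Of 32 genes of G1 and cell cycle exit, 6 were higher and 10 lower. The remaining paralog families, from cadherins to fatty acid-binding proteins, gave 10 higher and 10 lower of 38. The brain fatty acid-binding protein fabp7a had 97.7 TPM at 24 hpf and 1.71 TPM at 10 hpf (log2 ratio 5.93), while the mRNA-binding igf2bp1 and igf2bp3 were between, with igf2bp1 at 79.2 TPM at 24 hpf and 112 TPM at 10 hpf.

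Where a single transcript held at least 60% of a gene's TPM at each stage, it was rarely a different one. Genes without such a transcript are not covered, and at a share of 50% the changes numbered 163. Of 3350 genes with at least 2 transcripts and 5 TPM at both stages, 2735 had a main transcript of at least 60% of the gene's TPM in each library, and it was a different one in 50, or 1.83%. The transcription factor gene fezf2, of the forebrain, gave 67.7% of its TPM at 24 hpf to a transcript that held 37.9% at 10 hpf, while as a gene it was between at 43.0 TPM at 24 hpf and 92.0 TPM at 10 hpf. The ubiquitin ligase gene cbll1 gave 82.4% of its TPM at 24 hpf to a transcript that held 0.631% at 10 hpf. The lipid enzyme gene hsd17b12a gave 71.4% of its TPM at 24 hpf to a transcript that held 10.0% at 10 hpf, and 89.9% of its TPM at 10 hpf to another that held 27.5% at 24 hpf. In the rbm14 morpholino pair the same 2 transcripts were the most abundant at their stages for 12 of the 50 genes, among them fezf2 and hsd17b12a but not cbll1. The share of 60% was not required there, and genes under 5 TPM in either of those libraries counted as not the same. As genes, 10 of the 50 were higher, 14 lower and 26 between.

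The 2 stages could be compared once more in the rbm14 morpholino libraries, which share no library with the controls but come from embryos that received other morpholinos. Of the 2600 genes higher in the controls 2423 were also compared there, and 2019 were higher, 6 lower and 398 between. Of the 2029 genes lower in the controls 1850 were compared there, and 1381 were lower, 10 higher and 459 between. All of the 25 highest and all of the 25 lowest genes were past the rule in the same direction. The actin gene actc1b, for example, had 3164 TPM at 24 hpf and 6.18 TPM at 10 hpf in the rbm14 morpholino libraries, and sox32 had 0.22 TPM at 24 hpf and 471 TPM at 10 hpf.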

How the data were processed

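The authors deposited TPM for 57596 Ensembl transcripts in each of 4 libraries, with a gene symbol beside each. Each library sums to 1000000. HTSeq 0.6.1, HISAT2 2.0.1, Trimmomatic 0.30 and the build GRCz10 are listed, without roles, per the submitters' processing notes. For the tool behind the transcript values and for the annotation release, the sources used here give nothing. Depth cannot be had from TPM, and counting intervals and limits of detection are therefore not given.

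Transcripts were summed by symbol, which can merge loci, and near-identical paralogs are uncertain. Scaling rested on 9989 genes at or above 1 TPM at both stages and trimmed 30% of ratios and 5% of levels at each end. The procedure was tested on simulated data in which few genes were changed, equally up and down. In the control pair 52.7% of the genes compared were past the rule, so the simulation cannot show how the scaling behaves there. Python 3.11.15, pandas 2.3.3 and numpy 2.4.6 were used. With 1 library per group, no test was made. The members, lists and settings were chosen with earlier results of these data known. List names numbered 2241, of which 2072 matched exactly and 61 by a synonym in a table of another assembly, used for names alone.

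Genes named were the 25 highest and 25 lowest with a standard symbol and a value in both libraries, and the 15 most abundant per library. Also named were fixed markers, up to 6 members per list by size of ratio and up to 3 nearest 0. The rest were members of certain families, the 10 most abundant transcript switches and up to 10 genes listed at 0. Alternatives changed the scaling, the pseudocount, the floor, the summing of transcripts and the main transcript's share. One list and certain genes are not reported here, but all counts include them.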

Additional observations from a re-analysis of the deposited data

Results flagged for a closer look

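With 1 library on each side and after the rescaling, 15 genes with a value in every library were past 2-fold in the control pair. They were past 2-fold the other way in the rbm14 morpholino pair, and this was not tested. The interferon-induced isg15 had a log2 ratio of −3.87, at 0.43 TPM at 24 hpf and 17.2 TPM at 10 hpf in controls, against 99.4 TPM at 24 hpf and 17.6 TPM at 10 hpf with rbm14 morpholinos. The clock repressor bhlhe41 had −1.07, the ER-associated chaperone dnajb9b −1.27, the ER-linked factor creb3l2 −1.02, rnf169 −1.29, abhd17ab −1.02, MAP3K11 −1.05, C9orf69 −1.21, si:ch211-173m16.1 −1.15 and wu:fj64h06 −1.20 in controls, and all of these were higher in the rbm14 morpholino pair. The genes adh5 at 1.02, gpr19 at 1.73, s100t at 1.5, si:zfos-1837d3.1 at 1.62 and zgc:66479 at 1.02 were higher in controls and lower in that pair. For these the rescaling widened the contrast: the shift subtracted was −0.52 in the control pair and 0.37 in the other. As deposited, adh5 was within 2-fold in both pairs. It had 46.3 and 32.5 TPM at 24 and 10 hpf in controls, and 22.6 and 35.85 TPM with rbm14 morpholinos. By deposited values zgc:66479 was within 2-fold in controls and gpr19 in the rbm14 morpholino pair. Only s100t and si:zfos-1837d3.1 were past 2-fold in both. A further such gene, si:ch73-167c12.2, had 5.89 TPM at 24 hpf and 1.72 TPM at 10 hpf in controls and was listed at 0 at 24 hpf in the rbm14 morpholino pair, so no fold is given for it there. These genes were named after their values were seen.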

How the results depend on the processing

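No paired analysis was possible because each group of stage and morpholino has 1 library, so the groups compared share fewer than 2 replicate numbers. Of 29 recomputed counts and shares 18 kept close to their value, of 474 list medians 454 kept their side of 2-fold, and of 3237 values for named genes 3172 did, with none reversed. Without rescaling 24 values for named genes newly passed 2-fold, 23 fell within it and 499 kept their side. By deposited TPM nog1, aldh1a2, apoeb, nanos3, fezf2 and rpl7l1, all between by the rule, were more than 2-fold lower at 24 hpf. A floor of 1 TPM gave 4835 genes higher and 64.2% of calls higher, and a floor of 20 TPM gave 1178 higher, 1190 lower and 49.7%. Without rescaling 3282 genes were lower and 38.2% of calls were higher. The share was 59.3% without ribosomal protein and mitochondrial genes, and 58.9% with a pseudocount of 2 TPM. Medians that crossed the rule without rescaling were BMP −1.37, hatching gland 0.67, nucleolar −1.37, cholesterol 0.55 and mitosis −1.15. At a floor of 20 TPM they were BMP −1.40, myeloid −1.18, otic 0.68, mitochondrial ribosomal 1.08 and germ plasm −0.85, and the pronephros (−1.40) and cholesterol (−0.33) medians changed sign. At a floor of 1 TPM epidermis reached 1.89, splicing −0.91 and cholesterol 0.64, and myeloid changed sign to 2.05. Leaving out ribosomal protein and mitochondrial genes gave epidermis 1.23 and myeloid 1.42, which changed sign. A pseudocount of 0.1 TPM gave mitochondrial ribosomal genes 1.01, and 2 TPM gave cholesterol 0.85. The cause of these moves was not tested, but floors change which members are compared. Different main transcripts numbered 163 at a share of 50% and 10 at a floor of 20 TPM in both libraries. Depth is unknown, so precision at low TPM is unknown, and ribosomal and mitochondrial lists have no value where their genes were left out, nor lens genes at 20 TPM.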
